A study of Mus musculus with 2 samples.

Results

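Creb3l2 and XBP1 are basic leucine zipper (bZIP) transcription factors of secretory cells. Creb3l2 is made as an endoplasmic reticulum (ER) membrane protein whose released N-terminal part enters the nucleus, and XBP1 becomes a strong activator when IRE1, a sensor of the unfolded protein response, splices its mRNA. XBP1 is known for driving genes of ER biogenesis, protein folding and ER-associated degradation, and Creb3l2 for genes of vesicle transport out of the ER. Many bZIP factors bind DNA as dimers on sites built around the core ACGT.

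The sites described here were recruitment peaks of both factors in AtT-20, a cell line from a mouse pituitary corticotrope tumor that makes the hormone precursor POMC. They were chosen by position from measured peak calls: a peak of the XBP1 list was taken when it overlapped a peak of the Creb3l2 list by at least 1 bp. This gave 124 of 258 XBP1 peaks and 125 of 6484 Creb3l2 peaks, which formed 126 overlapping pairs at 123 sites. Shared peaks were thus 48.1% of the XBP1 list (95% Wilson interval 42.0 to 54.1) and 1.93% of the Creb3l2 list (1.62 to 2.29). Since the rule itself produced these shares, they are a description and nothing was tested on them.

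Creb3l2 was recovered with the FLAG M2 antibody from AtT-20 cells of passage 7 that carried 3x flag-Creb3l2 in its cleaved form, and the control was a FLAG ChIPseq done on AtT-20 cells that lacked it. These cells were a pool of drug-resistant retrovirally infected colonies, and the antibody reads the introduced protein, not the cell's own Creb3l2. XBP1 was recovered with the antibody M-186 from unmodified AtT-20 cells of passage 17, with an IgG control, so the 2 factors were not mapped in the same cells. Each factor had 1 library, so no value below has a replicate error or a p-value. Intervals cover counting error only, and levels were ranked within a list and never compared between factors. All positions are in the mouse build mm9, and the genes at these positions were not analysed here.

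The study built a reporter, 3xCreb3l2-RE, from repeats of a short element taken from an enhancer of the Kcnma1 gene. It is shown because it is the study's designed response element with the bZIP core, which stands in capitals. The paper reports dose-dependent activation of this reporter by Creb3l2 and also by XBP1. It also reports bZIP motifs with the core ACGT in the peaks of each factor. The forward oligonucleotide is 59 bases long and holds ACGT 3 times.
3xCreb3l2-RE: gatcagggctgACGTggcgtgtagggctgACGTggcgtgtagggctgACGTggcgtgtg
Its repeat unit of 18 bases carries the core once.
Repeat unit: agggctgACGTggcgtgt
The sequence under the peaks was not analysed here, so whether the shared sites hold this element was not tested.

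XBP1 signal at the shared sites was close to that of the other XBP1 peaks. Peak height is given as tags per kb, the deposited number of sequenced tags under a peak divided by its length. The 124 shared XBP1 peaks had a median of 49.5 tags per kb (quartiles 38.2 to 79.3, range 32.4 to 350) and the 134 others had 47.4 (38.1 to 78.7). Fold enrichment over IgG had a median of 7.29 at shared and 7.25 at other XBP1 peaks, and peak length had a median of 1077 and 1103 bp. The shared peaks held 9054 of the 18587 tags of the XBP1 list, or 48.7%. This sum takes the tags as deposited and includes overlapping XBP1 peaks whose tag numbers differ, described below.

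Creb3l2 signal was higher at the shared sites than over the remainder of its list. The 125 shared Creb3l2 peaks had a median of 158 tags per kb (quartiles 127 to 212, range 93.2 to 439), against 117 (103 to 140) for the other 6359. Their median fold enrichment was 5.20 against 4.25. They were also longer, with a median of 1196 bp against 947 bp, and the part of length in the overlap was not tested. Tags per kb divided by fold enrichment, here called implied control, had a median of 30.6 at shared and 27.5 at other Creb3l2 peaks. It is a ratio of deposited values and not a measured control level. The shared peaks were 1.93% of the list and held 3.28% of its tags (28943 of 882956).

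**Figure D1:**
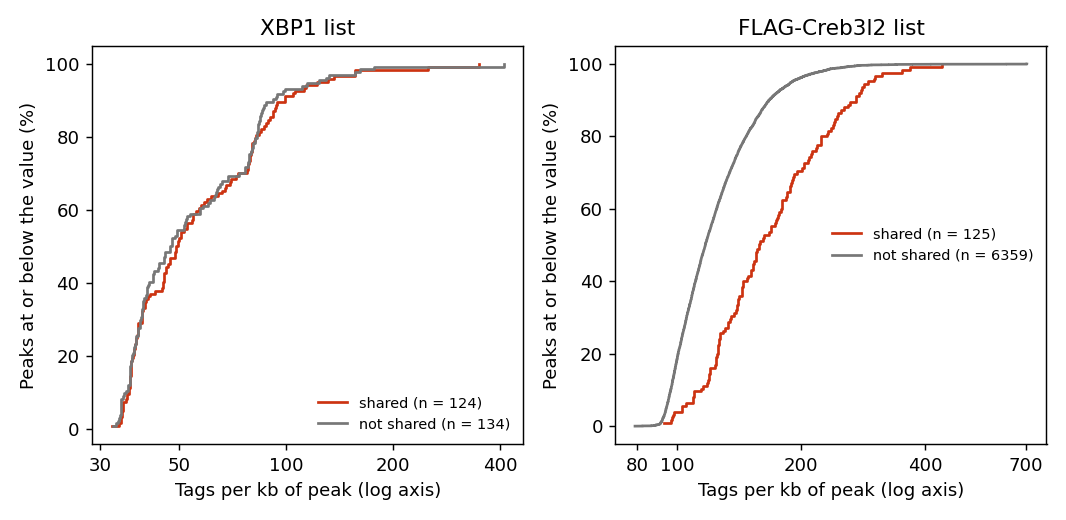
Cumulative share of peaks (percent, vertical axis) at or below a given height (tags per kb of peak, horizontal log axis), for shared peaks in red and the other peaks of the same list in grey, in the XBP1 list (left) and the Creb3l2 list (right). The XBP1 curves lie close together, with medians of 49.5 and 47.4, and the Creb3l2 curve of shared peaks lies to the right, with medians of 158 and 117.

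The share of Creb3l2 peaks that met an XBP1 peak rose with Creb3l2 height. When the Creb3l2 list was divided by tags per kb into 4 bins of 1621 peaks, 7 were shared in the lowest bin (0.432%, interval 0.209 to 0.889) and 7 in the next. The third bin held 29 (1.79%, 1.25 to 2.56) and the highest 82 (5.06%, 4.09 to 6.24). Among the 648 highest Creb3l2 peaks the share was 8.64%, from 56 peaks. By fold enrichment, the shares were alike below 6-fold, with 36 of 2632 peaks under 4-fold (1.37%, 0.990 to 1.89) and 37 of 3121 from 4- to 6-fold (1.19%, 0.861 to 1.63). They were higher above it, with 37 of 652 from 6- to 10-fold (5.67%, 4.14 to 7.72) and 15 of 79 at 10-fold or more (19.0%, 11.9 to 29.0). The shares describe the selection, since members entered through a peak call in both lists. The part of peak length in them was not tested.

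The XBP1 list showed no such order. Its 4 bins by tags per kb held 31 of 65, 28 of 64, 33 of 64 and 32 of 65 shared peaks from lowest to highest. The shares were 47.7%, 43.8%, 51.6% and 49.2%, and their intervals all overlapped, the lowest bin having 36.0 to 59.6. These bins mix XBP1 peaks of low and high implied control, described below, and were not redone within either set. Whether the mixture hides an order by height was not tested. By fold enrichment, 15 of 38 peaks under 5-fold (39.5%) and 9 of 23 at 20-fold or more (39.1%) were shared, with 27 of 49 (55.1%) between 10- and 20-fold.

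**Figure D2:**
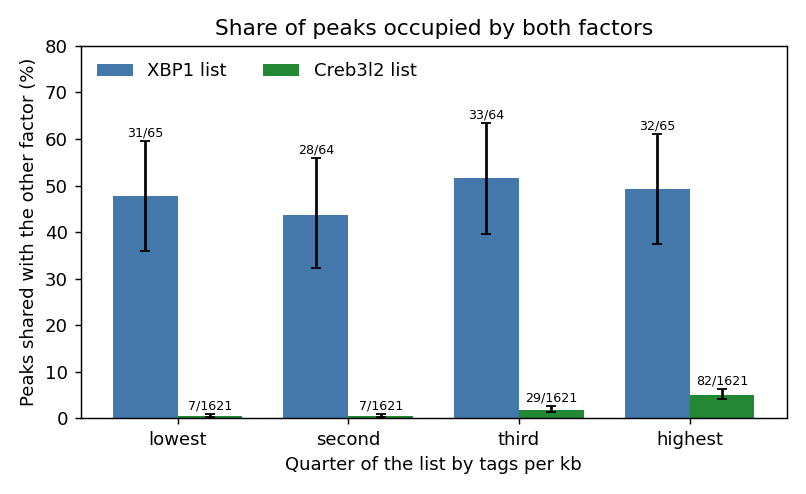
Share of peaks that were shared with the other factor (percent, vertical axis) in 4 bins of each list from lowest to highest tags per kb. Error bars are 95% Wilson intervals. Creb3l2 shares went from 0.432% to 5.06%, and XBP1 shares stayed between 43.8% and 51.6%. The XBP1 bins mix peaks of low and high implied control.

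Significance scores gave the same picture for Creb3l2. A score of at least 100, which stands for a peak caller p of 1e-10 or less, was reached by 39.9% of all Creb3l2 peaks, by 89 of the 125 shared ones (71.2%, interval 62.7 to 78.4) and by 2495 of the 6359 others (39.2%). In the XBP1 list 43.0% of all peaks reached it, with 59 of 124 shared (47.6%, 39.0 to 56.3) and 52 of 134 other peaks (38.8%, 31.0 to 47.3), whose intervals overlapped. Members entered through a peak call in both lists, so these counts describe the selection.

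The XBP1 peaks fell into 2 sets by how tags and fold enrichment went together. Tags per kb divided by fold enrichment was at most 12.3 in 218 XBP1 peaks and at least 13.9 in the other 40, a division at 13 chosen after the values were seen. Shared peaks were 105 of the 218 (48.2%) and 19 of the 40 (47.5%), so both sets met Creb3l2 at a like rate. The 19 shared peaks of the set with high implied control had 72.6 to 114 tags per kb at only 4.07- to 6.78-fold, while the other 105 had a median of 45.5 tags per kb at 8.59-fold. A direct view was given by 1 Creb3l2 peak that met a pair of XBP1 peaks lying almost on top of each other. At chr1:9626408-9627990 XBP1 had 86 tags, 9.93-fold and an implied control of 5.47, and at chr1:9626436-9628084 it had 188 tags, 6.78-fold and 16.8. The number of XBP1 tags over nearly the same stretch thus depended on the set, and the XBP1 orders by tags per kb mix both sets. How the authors came to both sets was not stated in the sources used here.

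**Figure D3:**
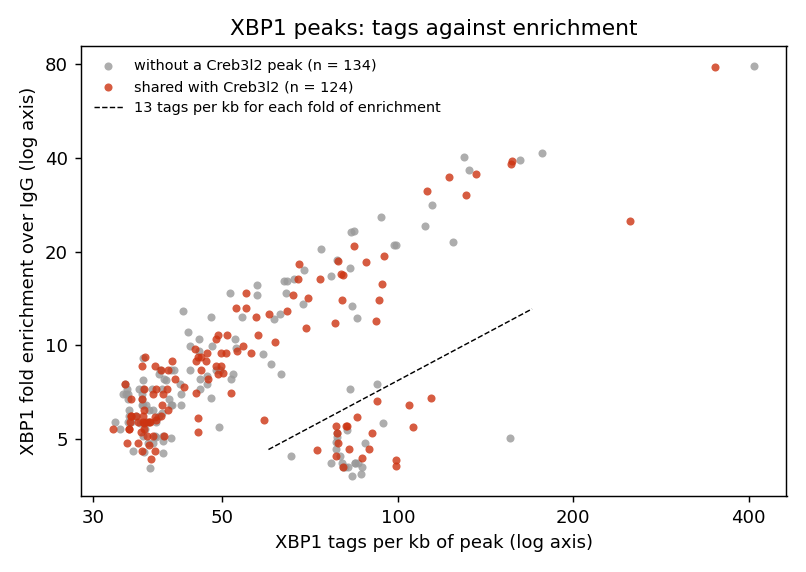
Fold enrichment over IgG (vertical log axis) against tags per kb (horizontal log axis) for each of the 258 XBP1 peaks, shared with Creb3l2 in red and not shared in grey. The dashed line marks 13 tags per kb for each fold of enrichment, and the 40 peaks below it form a set of their own at 19 shared and 21 not shared.

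The 10 highest shared XBP1 peaks all met Creb3l2 peaks above the upper quartile of the Creb3l2 list (141 tags per kb). These Creb3l2 peaks had ranks from 17 to 1486 of 6484. Of all 125 shared Creb3l2 peaks, 82 lay above that quartile. By fold enrichment the Creb3l2 peaks met by these 10 ranged from 3.21 to 17.25. The highest shared XBP1 peak, at chr10:86167602-86169137, had 537 tags, 350 tags per kb and 78.53-fold enrichment, and ranked 2 of 258. Creb3l2 had 278 tags there (exact Poisson interval 246 to 313), 173 tags per kb and 3.21-fold, rank 582 of 6484, with the summits 7 bp apart. The next, at chr8:101924031-101925223, had 299 XBP1 tags at 25.12-fold (rank 3) and 195 Creb3l2 tags at 17.25-fold (rank 177), with summits 15 bp apart. Both sites had a strong XBP1 peak, and the one with the lower XBP1 fold had the higher Creb3l2 fold.

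At chrX:71515293-71516517 XBP1 had 192 tags and 39.23-fold (rank 6) and Creb3l2 286 tags and 6.08-fold (rank 252). The site at chr6:28429470-28430903 ranked 7 for XBP1, with 224 tags and 38.19-fold, and 20 for Creb3l2, with 402 tags and 11.16-fold. It was 1 of 2 sites that passed both 20-fold for XBP1 and 10-fold for Creb3l2, the other being the chr8 site.

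The chr3 sites at 63767984-63769445 and 58329566-58330587 followed, with 199 and 134 XBP1 tags at 35.43- and 30.33-fold. Creb3l2 had 297 and 332 tags there, at 7.10- and 7.70-fold. At chr10:127739592-127741063 XBP1 had 180 tags at 34.74-fold, and Creb3l2 286 tags at only 3.35-fold. At chr18:35658121-35659304 XBP1 had 133 tags at 31.41-fold and Creb3l2 138 tags at 5.11-fold, rank 1486. The last of the 10 highest was chr4:137859948-137860880, with 99 XBP1 tags at 5.47-fold and high implied control, and 240 Creb3l2 tags at 8.23-fold.

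At 20-fold XBP1 enrichment or more, 9 sites remained. By Creb3l2 tags per kb, all 9 lay above the upper quartile of the Creb3l2 list, with 144 to 302. So did 73 of the other 114 sites (64.0%). By Creb3l2 fold enrichment the 9 sites were spread, from 3.21 to 17.25 (quartiles 3.56 to 7.70). Creb3l2 peaks that were not shared had quartiles of 3.70 to 4.99. Summits at these 9 sites were 5 to 140 bp apart, with a median of 36 bp. The limit of 20-fold was set after the values were seen, so this is a description.

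The highest Creb3l2 peaks among the shared sites carried XBP1 peaks of all heights. At chr5:115608106-115609452 Creb3l2 had 695 tags, 439 tags per kb and 12.20-fold (rank 4), and XBP1 91 tags at 16.37-fold (rank 86). Creb3l2 rank 8 was the site chr16:38562483-38563620, with 470 tags at 9.46-fold, where XBP1 had 51 tags at 9.73-fold, rank 150. At chr14:21492746-21493937, Creb3l2 rank 9 with 469 tags at 13.79-fold, XBP1 had 93 tags at 11.74-fold, rank 75. XBP1 was thus in the upper part of its list at the first and last of these sites and in the lower part at the chr16 site.

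Creb3l2 had 300 tags (interval 267 to 336) at 12.29-fold at chr9:121627556-121628456, where XBP1 had only 33 tags (22.7 to 46.3) at 7.25-fold, rank 215. Both intervals take the deposited tags as unscaled counts, which is in doubt for XBP1. At chr10:77084439-77085200 Creb3l2 reached 392 tags and 19.13-fold, the highest fold of any shared Creb3l2 peak, and XBP1 68 tags at 4.63-fold with high implied control. The sites chr19:12039402-12040380, chr5:100845265-100846140 and chr8:72825994-72827033 had 341, 467 and 375 Creb3l2 tags. XBP1 had 90, 41 and 55 tags there, at 11.96-, 8.86- and 9.61-fold. Of the 10 highest Creb3l2 sites, chr6:28429470-28430903 was also among the 10 highest for XBP1. The Creb3l2 peak chr1:9626376-9627977 (502 tags, 7.79-fold) was so only through the XBP1 peak with high implied control (rank 16), while the overlapping XBP1 peak with the longer overlap ranked 109.

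At the low end, the lowest XBP1 peak of the whole list was itself shared, at chr11:60590360-60591500 with 37 tags and 32.4 tags per kb. The lowest shared Creb3l2 peak lay under the XBP1 peak chr4:153282128-153283380, with 67 tags, 93.2 tags per kb and rank 6294. Both are at the edge of what the peak calls admitted, and they were picked out after their values were seen.

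**Figure D4:**
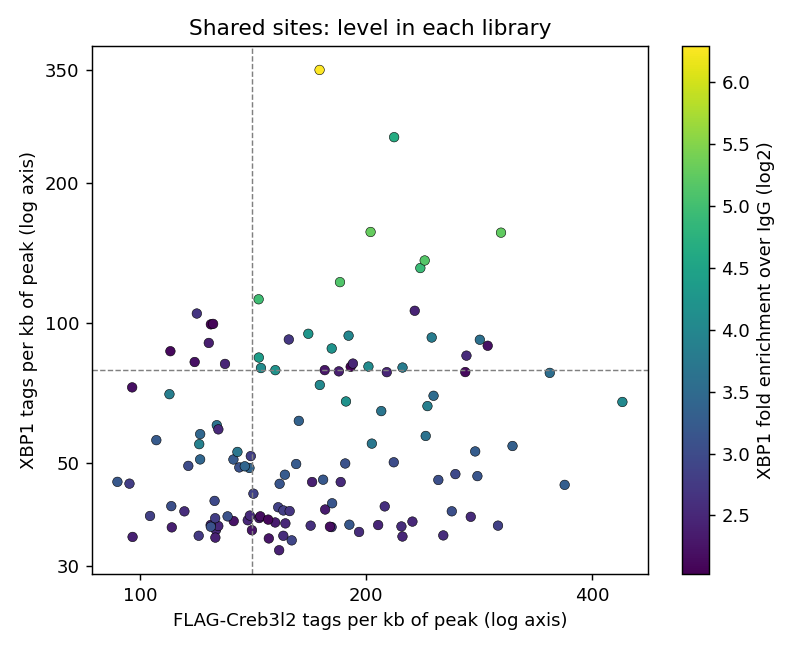
XBP1 against Creb3l2 height (tags per kb, log axes) at the shared sites, with dashed lines at the upper quartile of each whole list (79.1 for XBP1 and 141 for Creb3l2) and colour for the log2 of XBP1 fold enrichment over IgG. Most points lie above the Creb3l2 line, and 23 sites lie above both lines.

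Heights of both factors were only weakly related across the shared sites. Spearman's rho of tags per kb was 0.19 over 126 pairs, and 0.12 when fold enrichment was used. It is given as a description, since pairs share libraries and the XBP1 values mix both sets. Only peaks past the caller's threshold in both lists entered, and the effect of this limit on rho was not tested. Of 123 sites, 23 lay above the upper quartile of both lists, 59 above that of Creb3l2 only, 7 above that of XBP1 only and 34 above neither. All 7 XBP1-only sites had high implied control in the XBP1 list, as did 6 of the 23. At 20 of the 31 sites with XBP1 in the lowest of its 4 bins, Creb3l2 was above its upper quartile. Of all 125 shared Creb3l2 peaks, 82 were above it, so the 20 sites are not read as a pattern. At 1 site, chr4:94418713, named after its values were seen, the opposite held in part, with XBP1 above its upper quartile and Creb3l2 below its median.

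Summits of both factors lay close together, which the overlap rule in part required, so the distances describe the selected sites. The median distance over the 123 sites was 79 bp (quartiles 33.5 to 140, range 0 to 1544), while the overlapping stretch had a median of 950 bp. Summits were within 25 bp at 22 sites, within 50 bp at 48, within 100 bp at 73 (59.3%) and within 200 bp at 102 (82.9%). The XBP1 summit was at the larger coordinate at 63 sites, at the smaller at 59 and on the same base at 1, so neither side prevailed. That 1 site was chr10:71759383-71760740, with 125 XBP1 and 126 Creb3l2 tags, XBP1 being of the set with high implied control.

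**Figure D5:**
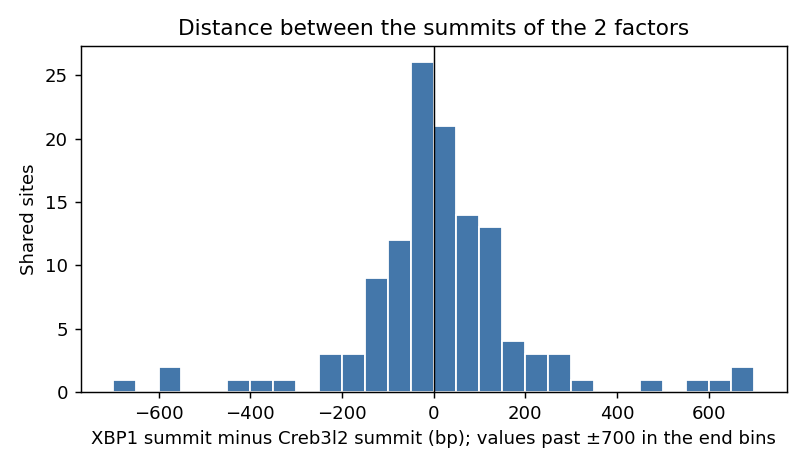
Distance from the Creb3l2 summit to the XBP1 summit (bp) at the shared sites, as the number of sites per bin, with values past the ends of the axis counted in the end bins. The distances centre near 0, with 73 sites within 100 bp and 63 and 59 sites on either side.

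Summits tended to be closer where Creb3l2 was higher, but the relation was weak. At the 62 sites with the higher Creb3l2 tags per kb the median distance was 56 bp and the largest 292 bp, and at the 61 lower sites it was 99 bp and 1544 bp. XBP1 tags per kb also had a higher median in the former, 59.3 against 45.1. The rho of distance with height was -0.19 for Creb3l2 and -0.07 for XBP1. Among sites with high XBP1 implied control the median distance was 115 bp over 18 sites, and among the others it was 64 bp over 105.

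At 115 sites each summit lay inside the other factor's peak. This count and the extent of overlap also follow in part from the overlap rule. The XBP1 peak was contained in the Creb3l2 peak at 38 sites, the reverse held at 22, and 63 overlapped in part. The overlap covered a median of 92.5% of the XBP1 peak and 80.7% of the Creb3l2 peak, and was under 50% of both peaks in 4 pairs.

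Summits were over 500 bp apart at 7 sites. The farthest was chr5:124560335, at 1544 bp, and the others, at 552 to 910 bp, began at chr4:48291209, chr11:118914232, chr15:98822620, chr18:3039481, chr19:10763529 and chr19:48008866. The shortest overlaps were 45 and 67 bp. They came from the lower of 2 Creb3l2 peaks under 1 XBP1 peak, at chr7:53039583-53040685 and chr3:130411913-130412977. Those lower Creb3l2 peaks had 80 and 84 tags, and the higher ones, which overlapped the XBP1 peak more fully, had 159 and 279. Just outside the rule were the XBP1 peaks chr11:87779373-87780668 with 59 tags, which missed a Creb3l2 peak of 78 tags by 312 bp, and chr5:140684262-140685159 with 35 tags, which missed one of 126 tags by 568 bp.

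XBP1 peaks without Creb3l2 were seldom near misses. Their nearest Creb3l2 peak was a median of 52666 bp away, 2 were within 1000 bp and 23 within 10000 bp. Some were among the strongest XBP1 peaks. The highest of all, chr2:34626858-34628311, had 595 tags at 78.82-fold and no Creb3l2 peak within 28971 bp, against 278 Creb3l2 tags at the chr10 site where XBP1 reached a like 78.53-fold. Of the 10 highest XBP1 peaks 5 were shared, and of the 20 highest 11, near the 48.1% of the whole list. Of the 10 and 20 highest Creb3l2 peaks 3 and 5 were shared, where the whole list had 1.93%.

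The density of Creb3l2 peaks around shared and other XBP1 peaks overlapped within counting error. A further Creb3l2 peak, beyond the overlapping one, lay within 10 kb of 15 of the 124 shared XBP1 peaks (12.1%, interval 7.47 to 19.0) and within 100 kb of 85. For the 134 other XBP1 peaks, counting any Creb3l2 peak, it was 23 (17.2%, 11.7 to 24.4) and 93. Shared sites were spread over the genome, with a median of 10.2 Mb between neighbours on a chromosome and none of 103 neighbouring pairs within 100 kb. The closest were the chr7 sites starting at 52714198 and 52823112, 109 kb apart.

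Chromosomes 3, 4 and 7 had 10 sites each, and chromosomes 13, 14 and 17 had 2 each. Shared XBP1 peaks were 6 of 20 on chromosome 8 and 3 of 11 on X, 10 of 15 on chromosome 3, 7 of 8 on chromosome 6, and 2 of 2 on each of chromosomes 14 and 17. These are small counts that were ordered after they were seen.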

How the data were processed

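Per the submitters' processing notes, the authors used Bowtie, MACS and HOMER with the genome mm9. ChIPs were pooled into 1 library per factor. The deposited tag counts per peak are whole numbers, taken as unscaled, although a pair of overlapping XBP1 peaks goes against this. The deposited fold ratio is ChIP over control as MACS gave it. The deposited score equals -log10 of the caller's p, multiplied by 10. The deposited positions are intervals and summits. Scores began at 50.0 for Creb3l2 and 50.01 for XBP1.

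Peaks were joined when they overlapped by at least 1 bp, linked peaks formed 1 site, and where a site held several pairs that with the longest overlap was used. Steps were tested on simulated data (SciPy 1.17.1, NumPy 2.4.6, pandas 2.3.3, matplotlib 3.10.9, Python 3.11.15). Sites were named as the 10 highest by tags per kb in each list. Members, lists and cutoffs were chosen with earlier results of these data known. The deposited lists give tags in peaks, 18587 for XBP1 and 882956 for Creb3l2, which are not sequencing depth, and read totals were not used here. The paper lists more reads for FLAG-Creb3l2 than for XBP1, and a paired-end option of the peak caller for Creb3l2 only. The part of these differences in the shares and tag numbers was not tested. Closest genes, promoter distances, gene lists and sequence motifs were planned but not run, since the annotation used here was of another build than mm9, and coordinates were not converted. Alternatives were another overlap rule, a summit limit, a score limit and fold enrichment in place of tags per kb.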

Additional observations from a re-analysis of the deposited data

How the results depend on the processing

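No paired analysis was possible because with 1 library per factor no test was run. Of 22 other settings laid out, 7 were run and 15, which need mm9 genes, promoters or sequence, were not. The number of shared sites was 123 and stayed at 121 when at least 50% of either peak had to overlap. It was 123 on assembled chromosomes, a setting that could not change it because no peak lay elsewhere. It was 73 with summits within 100 bp and 44 with a score of at least 100 in both lists. The median tags per kb at shared over other Creb3l2 peaks was 1.35. It was 1.48 with summits within 100 bp, 1.22 for fold enrichment and 1.43 without pairs over 500 bp apart, above 1 in each. The XBP1 ratio was 1.04, with 1.08 for summits within 100 bp, 1.005 for fold enrichment and 1.05 without pairs over 500 bp apart. Spearman's rho between the lists was 0.19. It was 0.12 for fold enrichment, 0.19 with each site counted once, 0.24 without pairs over 500 bp apart and 0.23 without XBP1 peaks of high implied control. The alternatives of 500 bp, of sites counted once and of implied control were chosen after seeing the data. The cause of each shift was not tested. Peak calls limit the lists to peaks past the caller's threshold, so weaker shared occupancy was not detectable.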
